A study of Mus musculus with 4 samples.

Results

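The genes examined here encode receptors for extracellular nucleotides and adenosine, together with 2 cell-surface enzymes that turn one into the other. They were listed by symbol, and were chosen by someone who already knew results of the same MOTS-c against scrambled comparison, so their differences are described without a test. The 10 genes are P2ry1, P2ry6, P2ry14, P2rx4, P2rx7, Adora1, Adora2a, Adora2b, Entpd1 and Nt5e, of 22911 gene symbols on the array. They are read by 16 of its 56605 gene probes. The study asked how MOTS-c, a peptide encoded in mitochondrial DNA, alters transcription in aged islet cells. Islets of 60-week-old C57BL/6 littermates, labeled male, were picked by hand and dispersed, and the cells were kept for 24 h with 10 μM of either a scrambled control peptide or MOTS-c. Each group held 2 one-color Agilent arrays, numbered 1 and 2 for scrambled and 2 and 3 for MOTS-c. The labels do not say which animal gave which array, so the spread between arrays may be partly technical, and all cell types of the islet were measured together.

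ATP released from cells, which in β-cells is packed with insulin, opens P2X channels and activates G protein-coupled P2Y receptors. Ectonucleotidases then strip its phosphates until adenosine is left, and adenosine acts on its own family of receptors. The receptors for adenosine differ in coupling: Adora1 and Adora3 lower cyclic AMP through Gi, whereas Adora2a and Adora2b raise it through Gs. In islets, this system is known for tuning insulin and glucagon secretion, and on immune cells for tuning inflammation.

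Of the gene spots, 61.6% to 65% were well above background on each array, and 0 were saturated. Over the 35087 probes that stood well above background on 2 arrays or more, replicate arrays differed by a median of 0.16 log2 units in the scrambled group and 0.19 in the MOTS-c group. limma called 0 of these probes, or 0%, at a Benjamini-Hochberg adjusted p under 0.05, while 2755 had an unadjusted p under 0.05. The methods' t-test called 1 after adjustment. Of the beta-cell markers, Ins1, Ins2, Iapp, Mafa, Nkx6-1 and Pdx1 were well above background on all 4 arrays and Slc2a2 on 3. Ucn3, a marker of mature β-cells, did not pass the filter. The label of male mice did not match the arrays. Each of the 4 arrays detected Xist, whereas 7 Y-linked probes gave 0 detections among 28 readings, in both groups alike.

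The promoters of 4 members are shown for the genes that the values below turn on, those of Adora2b, P2ry14 and Adora1, with signals lower on both MOTS-c arrays, and that of P2ry1, the one member that passed the filter with a higher mean. Each is the 250 bases before the outermost transcription start in RefSeq on mouse assembly GRCm38.p6, written 5′ to 3′ on the strand of the gene. Capitals mark the core of the hypoxia response element (ACGTG or GCGTG) and the GC box (GGGCGG), on either strand.
Adora2b, chr11:62248734-62248983, plus strand: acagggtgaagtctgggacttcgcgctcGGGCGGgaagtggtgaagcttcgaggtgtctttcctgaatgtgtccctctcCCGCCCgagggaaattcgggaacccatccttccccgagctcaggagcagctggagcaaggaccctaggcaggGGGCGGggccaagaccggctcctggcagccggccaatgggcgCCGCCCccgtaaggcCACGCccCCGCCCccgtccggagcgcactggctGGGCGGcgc
P2ry14, chr3:59153493-59153742, minus strand: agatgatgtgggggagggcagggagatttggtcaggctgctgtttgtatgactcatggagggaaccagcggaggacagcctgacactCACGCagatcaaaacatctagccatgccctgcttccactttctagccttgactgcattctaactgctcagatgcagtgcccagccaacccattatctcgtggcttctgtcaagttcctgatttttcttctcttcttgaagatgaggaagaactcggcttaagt
Adora1, chr1:134235458-134235707, minus strand: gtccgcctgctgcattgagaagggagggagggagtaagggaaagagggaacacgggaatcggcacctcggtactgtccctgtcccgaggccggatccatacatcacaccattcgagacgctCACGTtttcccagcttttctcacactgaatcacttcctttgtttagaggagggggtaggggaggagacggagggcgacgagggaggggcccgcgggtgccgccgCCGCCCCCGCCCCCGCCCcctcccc
P2ry1, chr3:61002535-61002784, plus strand: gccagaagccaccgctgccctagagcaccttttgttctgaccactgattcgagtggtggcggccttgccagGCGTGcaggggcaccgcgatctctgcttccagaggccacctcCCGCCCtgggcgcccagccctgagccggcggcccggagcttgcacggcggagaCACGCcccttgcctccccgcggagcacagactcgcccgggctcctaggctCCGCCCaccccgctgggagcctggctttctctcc

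The promoters of the genes with lower signal did not share one composition. Adora2b had 69.6% G and C with 6 GC boxes and Adora1 64.4% with 3, whereas P2ry14 had 50% and held no GC box. P2ry1, with the opposite sign, had 70.8% and 2 GC boxes. Across the 32851 promoters of the table, the median was 52.4% G and C, and 32.7% held a GC box. A hypoxia core stood in each of the 4 windows, as it did in 38.6% of all promoters. P2ry14 and Adora1 also have further starts. The windows of those of P2ry14 held no hypoxia core, and that of Adora1 held no GC box. A motif of the AP-1 factor (TGANTCA, either strand) began at −202 in P2ry14 and at −104 in Adora1, counted in bases from the transcription start, and was present in 6.75% of all promoters. The core of the cyclic AMP response element (TGACG, either strand, which can share its last letters with a hypoxia core, as a GC box can share an end letter) was absent from these windows and present in 17.8% of all promoters. Among the other members it was found in P2rx4 and Entpd1. P2ry6 and Adora2a had no entry. These matches are descriptions of sequence, and no binding was measured.

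Of the 16 probes, 10 passed the filter, 8 of them well above background on all 4 arrays and 2, both of P2rx7, on 3 arrays. The other 6 were not well above background on any array. By gene, 7 of the 10 had a probe that passed, and P2ry6, Entpd1 and Nt5e had none. For 6 of the 10 probes that passed, each MOTS-c array read lower than each scrambled array, as for 18.6% of all probes. None was higher on both arrays, as 19.4% of all probes were, and the groups overlapped for 4. The median difference, MOTS-c minus scrambled, was −0.51 on the log2 scale, beside 0.01 for all probes. As these genes were selected on the same contrast, the counts only describe the chosen genes.

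**Figure D1:**
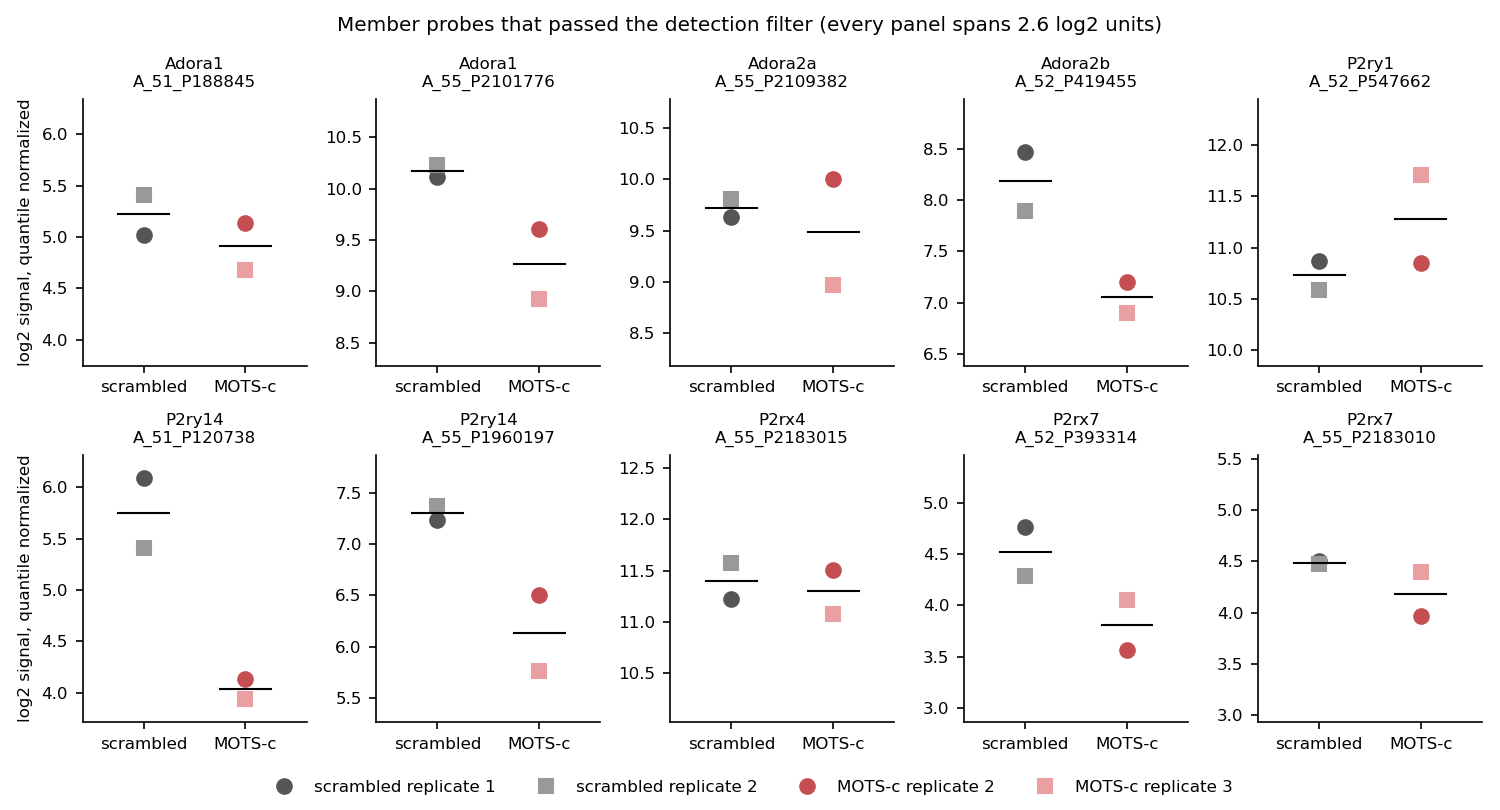
Quantile-normalized log2 signal (y axis) of the 10 probes that passed the filter, on scrambled and MOTS-c arrays (x axis). Points are arrays, lines are group means, and every panel spans the same number of log2 units. The MOTS-c points lie under the scrambled points for Adora2b, both P2ry14 probes, both P2rx7 probes and 1 of 2 Adora1 probes.

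Among the adenosine receptors, Adora2b, the low-affinity receptor that responds when adenosine accumulates, was lower with MOTS-c. Its probe A_52_P419455 read 8.47 and 7.89 log2 units with scrambled peptide and 7.20 and 6.90 with MOTS-c. Both MOTS-c arrays were below both scrambled arrays, with a gap of 0.69 between the groups. The means were 8.18 ± 0.41 and 7.05 ± 0.21 (SD, n = 2 each), a difference of −1.13 (SE 0.24), or 2.19-fold lower.

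Adora1, the high-affinity receptor coupled to Gi, was read by 3 probes that differed in how far they stood above background. The followed probe, A_55_P2101776, which is the brightest of those that passed, read 10.11 and 10.23 with scrambled peptide and 9.61 and 8.92 with MOTS-c. The groups did not overlap, the gap being 0.50, and the scrambled arrays were nearly equal while MOTS-c replicate 3 was the lowest. The means were 10.17 ± 0.08 and 9.27 ± 0.49 (SD, n = 2 each), with a difference of −0.91 (SE 0.26), or 1.88-fold lower. Without MOTS-c replicate 3 the difference was −0.57. A second probe, A_51_P188845, is annotated to the same transcript. It read 5.02 and 5.41 against 5.14 and 4.68, so that the groups overlapped, with a difference of −0.31 (SE 0.23). Its spots were 1.61 to 2.57 times their local background, beside 14.99 to 34.24 times for the followed probe. The remaining probe, A_66_P140422, for another transcript, was not well above background on any array. Hence the groups were apart on 1 of the Adora1 probes that passed and overlapped on the other.

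Adora2a, the receptor coupled to Gs and the main one on lymphocytes and myeloid cells, did not separate the groups. The probe A_55_P2109382 read 9.63 and 9.81 with scrambled peptide and 10.00 and 8.97 with MOTS-c, so that the MOTS-c arrays held both the highest and the lowest value. The difference was −0.23 (SE 0.36), and it was 0.29 without MOTS-c replicate 3 and −0.75 without MOTS-c replicate 2. The range of the MOTS-c arrays, 1.04 log2 units, was the widest among the members that passed.

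Among the P2Y receptors, P2ry14, the receptor for UDP-glucose and other UDP-sugars, was lower with MOTS-c on both probes that read it. The followed probe, A_55_P1960197, read 7.23 and 7.37 with scrambled peptide and 6.50 and 5.76 with MOTS-c. Both MOTS-c arrays were lower, and the gap of 0.73 matched the range of the MOTS-c arrays themselves, 0.73. The means were 7.30 ± 0.10 and 6.13 ± 0.52 (SD, n = 2 each), with a difference of −1.17 (SE 0.27), or 2.25-fold lower. The probe for a second transcript, A_51_P120738, read 6.09 and 5.41 with scrambled peptide and 4.13 and 3.94 with MOTS-c. Its difference was the largest of any member probe, −1.71 (SE 0.26) or 3.28-fold lower, but its spots on the MOTS-c arrays were 1.40 and 1.45 times the local background. With another background correction (normexp), the differences of these probes were −0.75 and −0.58, so that the size for P2ry14 depended on how background was removed while the order of the arrays for the followed probe did not.

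P2ry1, the Gq-coupled receptor for ADP, which raises calcium in β-cells, was the one member among those that passed the filter with a higher mean under MOTS-c. The probe A_52_P547662 read 10.87 and 10.59 with scrambled peptide and 10.85 and 11.71 with MOTS-c. MOTS-c replicate 2 lay between the scrambled arrays, so the groups overlapped by 0.02 log2 units, and the difference of 0.55 (SE 0.32) came from MOTS-c replicate 3. It was 0.12 without that array and 0.97 without MOTS-c replicate 2. P2ry6, the receptor for UDP, was read by 1 probe that was not well above background on any array, with spots 1.09 to 1.43 times the local background.

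Of the P2X channels, P2rx4 overlapped between the groups and P2rx7 lay near background. P2rx4, a calcium-permeable channel opened by ATP, read 11.22 and 11.57 with scrambled peptide and 11.51 and 11.08 with MOTS-c. The groups overlapped, with means of 11.40 ± 0.25 and 11.30 ± 0.30 (SD, n = 2 each) and a difference of −0.10 (SE 0.22). The sign turned without scrambled replicate 2, to 0.08, and without MOTS-c replicate 3, to 0.11. P2rx7, the channel that high ATP opens and that leads to release of interleukin-1β, was close to background. Its followed probe, A_55_P2183010, read 4.50 and 4.47 with scrambled peptide and 3.97 and 4.40 with MOTS-c, and MOTS-c replicate 2 was not well above background. The groups were apart by 0.07, with a difference of −0.30 (SE 0.18), and overlapped when arrays were shifted to their 75th percentile or when normexp was used. The probe A_52_P393314 read 4.76 and 4.29 against 3.57 and 4.05, with a difference of −0.71 (SE 0.25) that was −0.09 with normexp. The remaining P2rx7 probe was not well above background on any array. P2rx7 and P2rx4 lie on the same strand of chromosome 5, with promoters at chr5:122643677-122643926 and chr5:122707294-122707543.

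No probe of the member enzymes that make adenosine from ATP was detected. Entpd1, or CD39, which takes ATP and ADP to AMP, was read by 2 probes, and Nt5e, or CD73, which takes AMP to adenosine, by 1. None was well above background on any array. Spots of Nt5e were 1.07 to 1.23 times the local background and those of Entpd1 0.82 to 1.52 times. The highest of these, 1.52 on scrambled replicate 2, exceeded the lowest value of a probe that passed, 1.27 for P2rx7 on MOTS-c replicate 3. The processed signals of these spots had the opposite order, at 8.19 and 18.1. This ratio is a different measure from the scanner software's call of well above background. The Entpd1 and Nt5e probes give an upper bound on signal and no fold change.

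**Figure D2:**
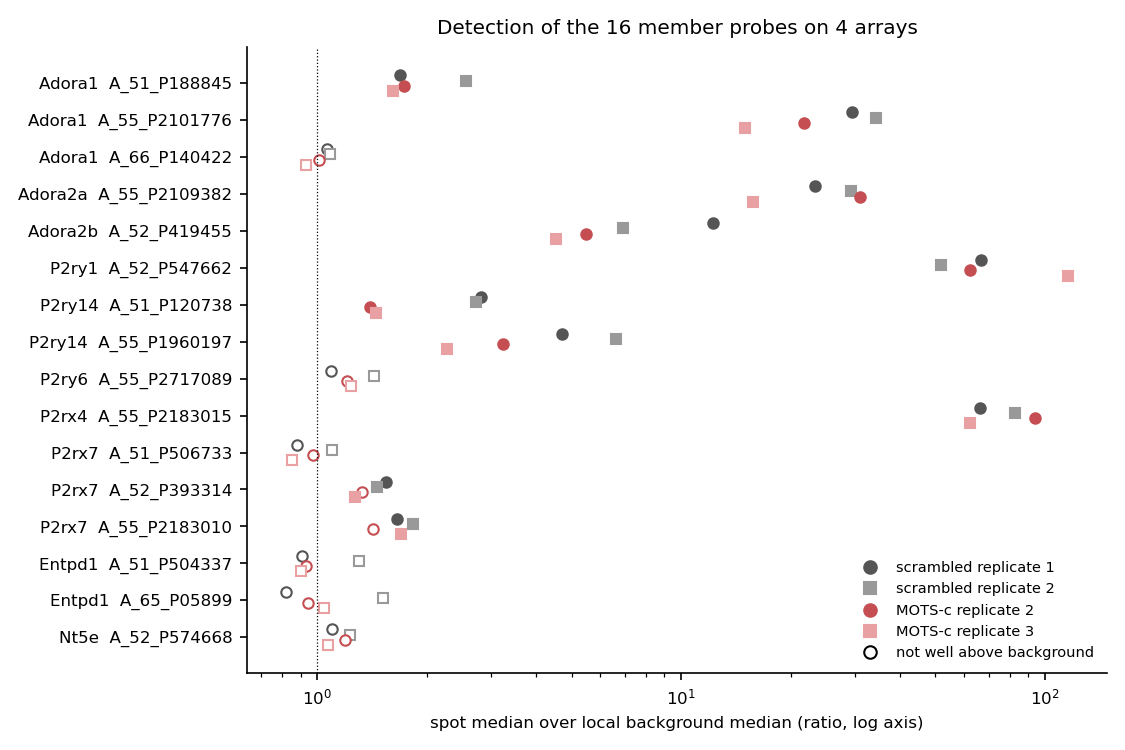
Spot median over local background median (x axis, log scale) for all 16 probes (rows). Filled points are spots well above background and open points are not; the color and shape give the array. Spots of P2ry6, Entpd1 and Nt5e lie between 0.82 and 1.52, and those of P2ry1 reach 116.

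For most of the probes that passed, one MOTS-c array was the extreme. MOTS-c replicate 3 was the lowest of the 4 arrays for Adora1 (both probes that passed), Adora2a, Adora2b, both P2ry14 probes and P2rx4, and the highest for P2ry1. Both P2rx7 probes that passed went the other way, with MOTS-c replicate 2 the lowest. Over the followed probes of Adora1, P2ry14, Adora2a and P2ry1 the MOTS-c arrays were 0.69, 0.73, 1.04 and 0.86 log2 units apart, while the scrambled arrays were 0.12, 0.15, 0.18 and 0.28 apart. Adora2b had the opposite order, the scrambled arrays being 0.58 apart and the MOTS-c arrays 0.29. So did the second P2ry14 probe, A_51_P120738, at 0.68 for scrambled and 0.19 for MOTS-c.

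Markers of other cell types were set beside these values because the signal of a receptor in a mixed sample cannot tell fewer cells of a type from less RNA per cell. The summed signal of glial markers was 7556 and 7418 with scrambled peptide and 5626 and 3841 with MOTS-c, lower without overlap, with 2 of 4 markers detected and Sox10 and S100b not. Acinar markers had 957 and 1148 against 656 and 434, with 2 of 6 detected. Both lists were lowest on MOTS-c replicate 3, as were Adora1 and P2ry14. Mesenchymal markers had 5622 and 5126 against 4845 and 4823, with 3 of 10 detected and Pdgfrb, Col1a1 and Dcn among those that were not. Alpha-cell markers were higher without overlap, at 48284 and 50014 against 51962 and 54167, with 3 of 4 detected. Macrophage markers, a cell type known for P2rx7, gave 11005 and 12183 against 9807 and 12080, with 6 of 9 detected and Adgre1, C1qc and Mrc1 not. The groups overlapped, as they did for beta, delta, PP, endothelial, duct and lymphocyte markers. Beta-cell markers summed to 828877 and 859714 against 828535 and 831147, with 7 of 8 detected, but 3 of the 7 were lower and 3 higher without overlap. Among the lower ones, Slc2a2, the glucose transporter of β-cells, read 5.23 and 5.26 against 3.81 and 4.02. Its difference of −1.33 (SE 0.14, limma adjusted p 0.474) was larger than that of any followed member probe. Its probe was well above background on 3 arrays, and its MOTS-c readings lay among those of P2rx7, near background. Delta-cell markers, 2 of 2 detected, gave 147040 and 215809 against 147055 and 146186. Endothelial markers, with Cdh5 and Kdr among the 5 of 9 not detected, gave 6093 and 7038 against 7041 and 6347, and lymphocyte markers, without Ptprc, 1428 and 1729 against 1465 and 1521. The part of these lists in the receptor values was not tested.

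The wider purinergic pathway was read through 56 further genes that are not members, 41 of which had a probe that passed. By limma, 0 had an adjusted p under 0.05, and the smallest was 0.474, while 10 had an unadjusted p under 0.05. At an unadjusted p under 0.05 and at least 1.5-fold, 3 genes, or 7.32%, were lower, beside 3.01% of all 15470 genes, and 1 gene, or 2.44%, was higher, beside 0.995%. Without overlap of the arrays, 14 genes, or 34.1%, were lower, beside 22.7% of all genes, and 7, or 17.1%, were higher, beside 19.8%. The median difference over the 41 genes was −0.06. Earlier results of these data were known when this list was chosen, so the shares only describe the listed genes. Leaving out MOTS-c replicate 2 raised the count of lower genes from 3 to 9, and normexp lowered it to 1.

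**Figure D3:**
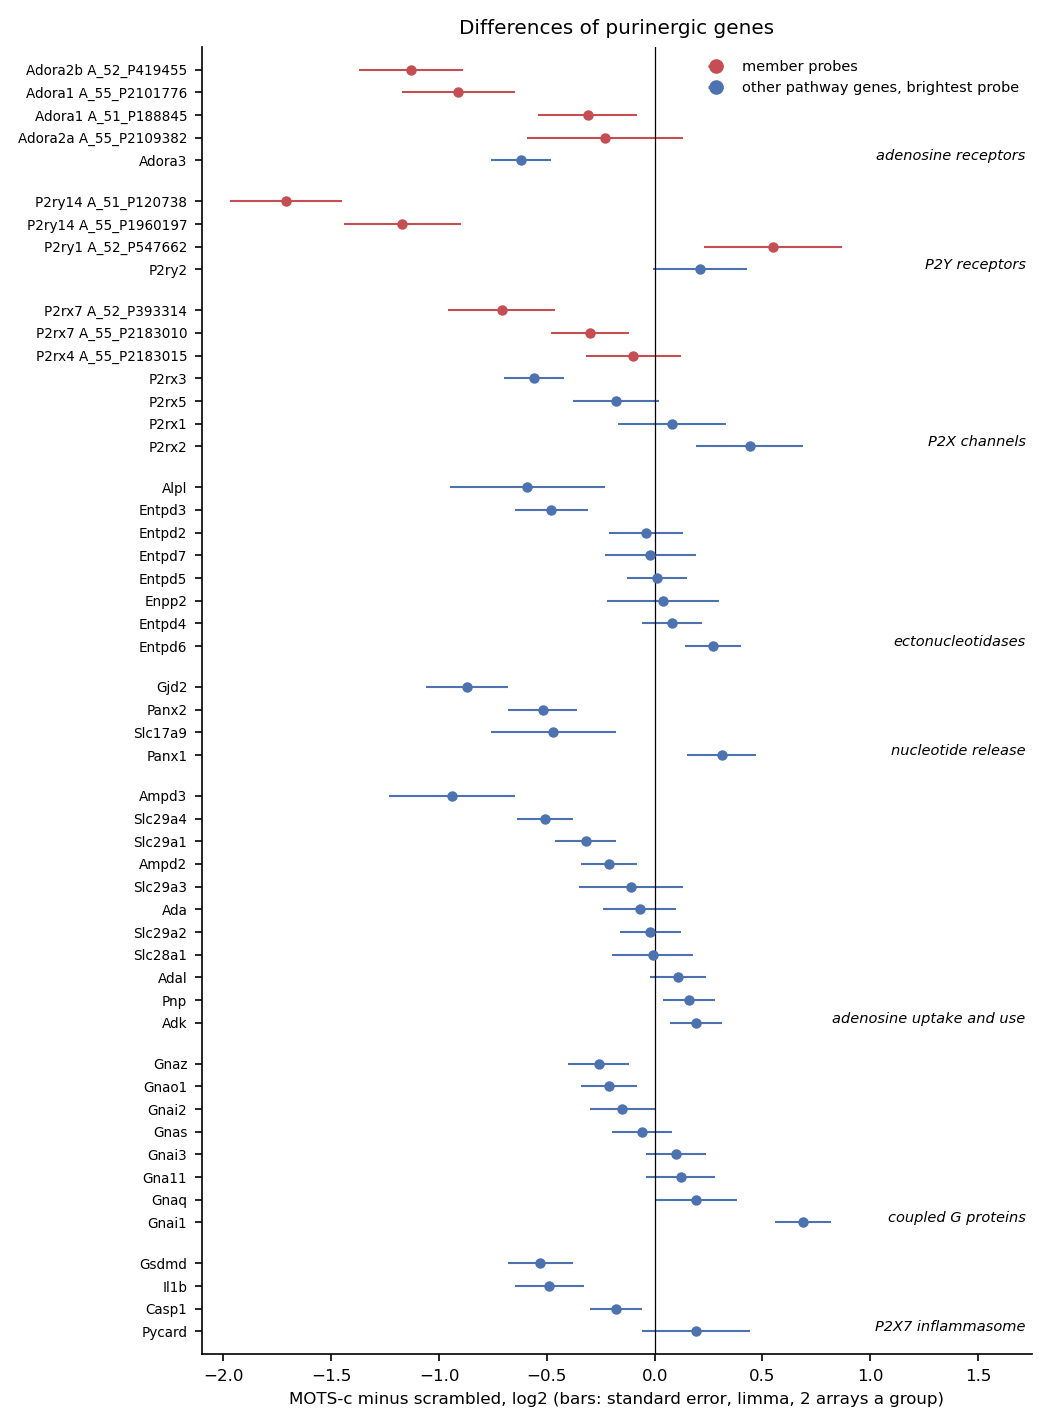
Difference in log2 signal, MOTS-c minus scrambled (x axis), for member probes (red) and other pathway genes by their brightest probe (blue), grouped by role (rows). Bars are standard errors from limma with 2 arrays a group. P2ry14 and Adora2b lie farthest to the left, P2ry1 and Gnai1 farthest to the right.

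Among the remaining receptors, Adora3, the adenosine receptor of mast cells that couples to Gi, read 5.37 and 5.50 with scrambled peptide and 4.93 and 4.71 with MOTS-c. Its difference was −0.62 (SE 0.14), with an adjusted p of 0.514 from limma, and −0.18 with normexp. Of the P2X channels, P2rx3 was lower by sign, at −0.56 (SE 0.14, limma adjusted p 0.527), and P2rx2 higher, at 0.44 (SE 0.25, adjusted p 0.741). With normexp, P2rx3 was at −0.21 and P2rx2 at 0.18. P2ry2, the receptor for ATP and UTP, was the one further P2Y receptor that passed. Its difference was 0.21 (SE 0.22, limma adjusted p 0.860), and 0.01 with normexp. P2ry4, P2ry10, P2ry12 and P2ry13 did not pass the filter. None of these receptors passed the test.

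Genes that release and clear nucleotides showed one difference of the size seen in Adora1. Gjd2, or connexin 36, which forms the gap junctions between β-cells and was listed here with channels of release, read 9.99 and 9.75 with scrambled peptide and 9.19 and 8.80 with MOTS-c. The arrays did not overlap, and the difference was −0.87 (SE 0.19, limma adjusted p 0.500), from −1.06 to −0.69 with single arrays left out. Panx1, a channel through which ATP leaves cells, differed by 0.31 (SE 0.16, limma adjusted p 0.722). Of 11 further ectonucleotidases, 8 passed, with differences from −0.59 for Alpl, tissue-nonspecific alkaline phosphatase (SE 0.36, limma adjusted p 0.756), to 0.27 for Entpd6 (SE 0.13, adjusted p 0.695). A second probe of Entpd6 gave 0.05. Entpd3, which is known in β-cells and was chosen after its values were seen, read 10.43 and 10.50 against 10.18 and 9.80, a difference of −0.48 (SE 0.17, limma adjusted p 0.615).

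Inside the cell, 11 of 14 genes that take up or use adenosine passed. Ampd3, an AMP deaminase, read 5.67 and 5.65 with scrambled peptide and 5.12 and 4.31 with MOTS-c. Its difference of −0.94 (SE 0.29, limma adjusted p 0.563) was −0.54 without MOTS-c replicate 3 and −0.31 with normexp. Adk, the kinase that returns adenosine to AMP, differed by 0.19 (SE 0.12, limma adjusted p 0.767).

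All 8 G protein α-subunits passed, and they differed little apart from Gnai1. Gnai1, a Gi subunit through which Adora1 and P2ry14 signal, read 10.13 and 10.11 with scrambled peptide and 10.72 and 10.91 with MOTS-c. Both MOTS-c arrays were higher, with a difference of 0.69 (SE 0.13), or 1.62-fold, which had a limma adjusted p of 0.474 and lay between 0.60 and 0.79 with single arrays left out. The other 7 lay between −0.26 for Gnaz (SE 0.14, limma adjusted p 0.723) and 0.19 for Gnaq, with the other Gi genes Gnai2 and Gnai3 at −0.15 and 0.10.

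Downstream of P2X7, Nlrp3 and Il18 did not pass the filter, and 4 of 6 inflammasome genes did. Gsdmd, which forms the membrane pore of pyroptosis, differed by −0.53 (SE 0.15, limma adjusted p 0.539), and its second probe by −0.45. Pycard, the adaptor, differed by 0.19 (SE 0.25, limma adjusted p 0.886). Il1b, chosen after its values were seen, differed by −0.49 (SE 0.16, limma adjusted p 0.570) on one probe and −0.50 on the other. None of the 4 passed the test.

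The genes whose arrays most resembled the members with the largest differences were found by the distance between log2 values centered on each probe, over 4 arrays and 21812 or 21813 other probes with a symbol. For P2ry14, these were Cxcr4 at 0.06 log2 units, Inpp4b at 0.09 and Selp at 0.11. Cxcr4 is a chemokine receptor, Inpp4b a phosphoinositide phosphatase and Selp the adhesion protein P-selectin. For Adora2b, they were Serpina9 at 0.11, Nupr1, a stress-response gene, at 0.16 and Pde6c at 0.18. Among the followed probes of the members, P2ry14 and Adora1 were 0.26 apart and P2ry14 and Adora2b 0.60 apart, whereas P2ry14 and P2ry1 were 2.07 apart. The second P2ry14 probe, A_51_P120738, was 0.88 from the followed P2ry14 probe. It was 1.05 from the followed Adora1 probe, 0.59 from Adora2b and 2.39 from P2ry1. All of these distances share the same 4 arrays.

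**Figure D4:**
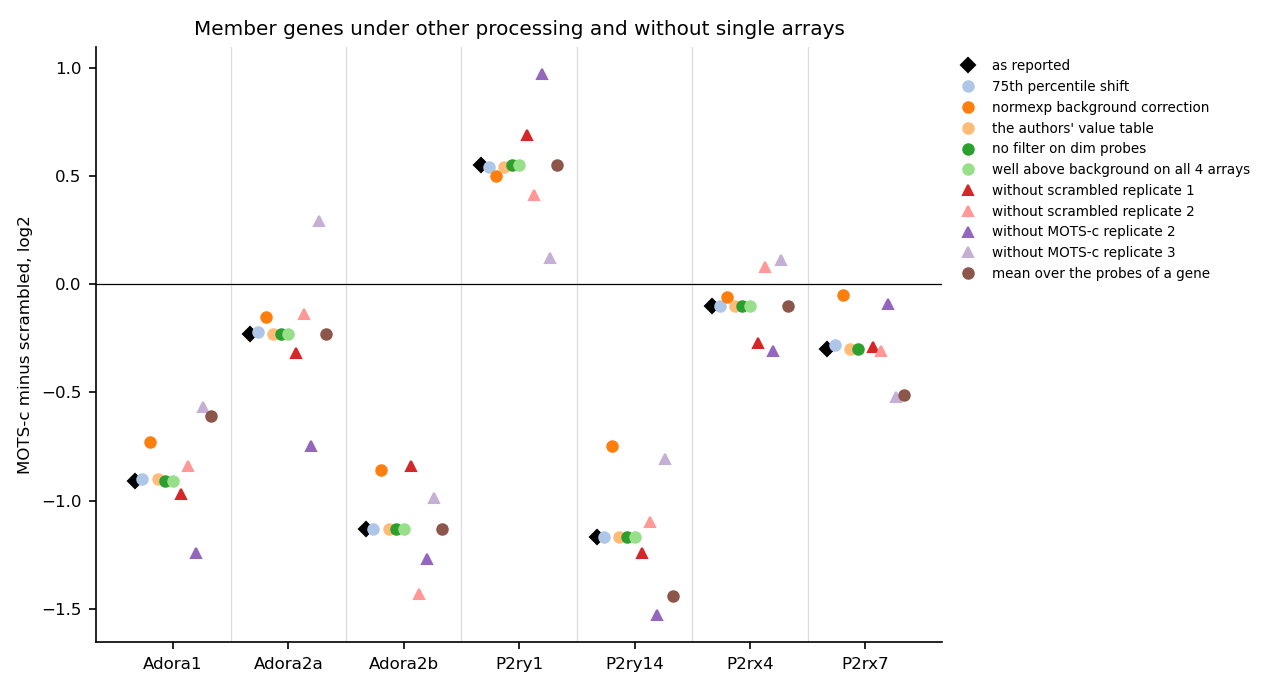
Difference in log2 signal, MOTS-c minus scrambled (y axis), of the 7 member genes with a probe that passed (x axis), as reported (diamonds), under other processing (circles) and without single arrays (triangles). Adora2b, P2ry14 and Adora1 stay below 0 throughout, and Adora2a and P2rx4 take both signs.

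Across processing alternatives and with each array left out, the sign was constant for Adora2b (from −1.43 to −0.84), P2ry14 (from −1.53 to −0.75), Adora1 (from −1.24 to −0.57), P2rx7 (from −0.52 to −0.05) and P2ry1 (from 0.12 to 0.97). For Adora2b, P2ry14 and Adora1, the MOTS-c arrays were also below the scrambled arrays in each alternative that kept 4 arrays. The arrays of P2ry1, which overlapped as reported, did not overlap under the 75th percentile shift, at 10.86 and 10.60 against 10.87 and 11.67. With 2 arrays a group, the smallest two-sided p that an exact permutation test can give is 0.333.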

How the data were processed

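Total RNA of 4 mouse islet cell samples was hybridized to one-color Agilent arrays, and the authors scanned them and extracted the spots with Feature Extraction. The deposited intensity values had their background removed array by array and carry no normalization across arrays. Another table that the authors deposited holds the same intensity values on a linear scale, not centered, with a ratio to the scanner files of 0.995 to 1.005 on every array and column medians of 51.2, 46.6, 48.2 and 54.9.

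Here 3671 control spots per array and 96 to 131 outlier spots were left out, intensities were log2 transformed and repeat spots were averaged by probe. The filter, blind to group, kept the 35087 probes that stood well above background on 2 or more of the 4 arrays, which were then quantile normalized. The methods remove probes with Flag A, which they do not define. The groups were compared with limma 3.58.1 under R 4.3.3, with Benjamini-Hochberg adjustment over all probes. The residual degrees of freedom were 2, with 2.64 added from all probes. The steps were tested on simulated data. The number of arrays limits the precision. The limma p-values weigh each group difference against the spread between arrays of a group, moderated over all probes. They cover only these samples, and how much of that spread is technical is not known. All 4 arrays lay on 1 slide. Symbols came from accessions matched to the gene table of GRCm38.p6 (32994 of 56605 probes had 1 symbol), and probe coordinates, which the design gives on a different build, are left out.

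The members, the pathway list and the marker lists were chosen with earlier results of these data known. The text names all members with every probe, any pathway gene called, otherwise the largest rise and fall in each role by the brightest probe, and the 3 genes nearest in pattern to the 2 members with the largest differences. Marker lists covered beta, alpha, delta, PP, macrophage, endothelial, mesenchymal, duct, acinar, lymphocyte and glial cells. Further alternatives were a shift to the 75th percentile, normexp with offset 50 on median spot signals, that other table, other filters, single arrays left out, the mean over a gene's probes and the methods' t-test.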

Additional observations from a re-analysis of the deposited data

How the results depend on the processing

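No limma setting called a probe of the whole table or a pathway gene at an adjusted p under 0.05, and the methods' t-test called 1 probe. The count of probes at an unadjusted p under 0.05 and at least 1.5-fold was 1239 (387 higher and 852 lower). It was 406 with normexp and 458 with the methods' t-test, and ranged from 1374 to 3264 with single arrays left out, the highest without MOTS-c replicate 2. The pathway count of lower genes, 3, was 1 with normexp and ranged from 2 to 9 with single arrays left out, again the highest without MOTS-c replicate 2. That of higher genes, 1, ranged from 1 to 2, with 2 without scrambled replicate 2. Of the 7 member genes with a probe that passed, 4 were lower on both MOTS-c arrays by the followed probe, beside 22.7% of all genes. These members were selected on the same contrast. The count was 3 with normexp, with the 75th percentile shift and with the filter on all 4 arrays, which removed P2rx7. Counts with single arrays left out cannot be set beside it, since fewer arrays overlap less readily. The difference of P2ry14 was −0.75 and that of P2rx7 −0.05 with normexp. With normexp an offset of 50 was added to every spot, and background removal and offset were not varied apart. The cause of these shifts was not tested.

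No paired analysis was possible because the groups share only 1 replicate number. The slide was not fitted as a block, since all arrays lay on 1 slide. Signal over background limits P2rx7, the second probes of Adora1 and P2ry14, and the genes that were not detected.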

Other observations

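Duct markers, 3 of 6 detected, summed to 180 and 280 with scrambled peptide and 224 and 163 with MOTS-c, and Ppy, the marker of PP cells, had a signal of 13.9 and 23.4 against 21.5 and 23.7. Slc29a4, a monoamine and adenosine transporter of the plasma membrane, read 13.87 and 13.78 log2 units with scrambled peptide and 13.40 and 13.22 with MOTS-c, a difference of −0.51 (SE 0.13, limma adjusted p 0.534). Panx2, a channel related to Panx1, read 5.27 and 5.04 against 4.51 and 4.77, a difference of −0.52 (SE 0.16, limma adjusted p 0.566). Both genes were chosen after their values were seen.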
